A study of Mus musculus with 10 samples.

Results

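HOX genes encode homeodomain transcription factors and lie in 4 clusters, HOXA, HOXB, HOXC and HOXD, on different chromosomes. Members were all protein-coding genes whose symbol is Hox, a cluster letter from a to d and a number, which gave 39 of the 55359 genes in the deposited table. There were 11 in HOXA (mouse chromosome 6, 52132570 to 52237822 in GRCm39), 10 in HOXB (chromosome 11, 96085106 to 96259082), 9 in HOXC (chromosome 15, 102829538 to 102945278) and 9 in HOXD (chromosome 2, 74498654 to 74595486). The number in the symbol is the paralogue group, which follows the order of the genes along each cluster.

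RNA-seq was performed on lineage-negative (Lin-) bone marrow cells, a mixture rich in blood progenitors that is left once cells with markers of mature lineages are removed. All mice carried floxed alleles of Dhx9, the gene of an RNA helicase. The 5 WT libraries were labelled Dhx9f/f, and the 5 cKO libraries were labelled Dhx9f/f;MX1, in which the interferon-responsive Mx1 promoter drives Cre and poly(I:C), an interferon inducer, switches it on. By the study's methods the sex of the mice was random, and mice were taken a week after poly(I:C) was begun unless stated otherwise. The age and sex of each mouse, and whether the WT mice sequenced here received poly(I:C), were not given in the sources used here.

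Dhx9 itself went against the labels. Its mean level was 69.7 ± 2.84 FPKM (fragments per unit of gene length and library depth; SD, n = 5) in the libraries labelled WT and 139.9 ± 11.98 FPKM (SD, n = 5) in those labelled cKO. A gene-level value does not show which exons were covered. Libraries are therefore named by their labels, and every direction given here rests on those labels. Xist, the RNA of the inactive X chromosome, was above 1 FPKM in WT libraries 3, 4 and 5 only. A difference in sex, if Xist is read as its mark, may therefore run partly along with the labels. Depth read back from the values was 13840900 to 18712400 fragments per library, so that 3 fragments in a gene of 2000 bp corresponded to 0.0802 to 0.108 FPKM. Values near 0.1 FPKM therefore stand on a few fragments.

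Background on the family is given here without measurement. HOX proteins bind DNA together with TALE cofactors (PBX, MEIS and PKNOX proteins), and the clusters are held silent by Polycomb complexes and kept active by MLL (Kmt2a) and its partners. In blood, genes of HOXA and HOXB are used most in stem and early progenitor cells and are shut down as cells mature. Hoxa9 with Meis1 is known from leukaemia, and Hoxb4 is known for expanding stem cells when overexpressed.

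The starts of 4 members are shown because they include the 3 members highest by FPKM (Hoxa7, Hoxa9 and Hoxb4) and Hoxa5, the highest of the remaining genes in WT. Each window covers 250 bases before to 50 bases after the annotated start of the canonical transcript (GENCODE, GRCm39), read 5′ to 3′ along the gene, with CpG dinucleotides in capitals. They are Hoxa5 at chr6:52181518-52181817 (minus strand), Hoxa7 at chr6:52194436-52194735 (minus strand), Hoxa9 at chr6:52204301-52204600 (minus strand) and Hoxb4 at chr11:96208843-96209142 (plus strand).
Hoxa5: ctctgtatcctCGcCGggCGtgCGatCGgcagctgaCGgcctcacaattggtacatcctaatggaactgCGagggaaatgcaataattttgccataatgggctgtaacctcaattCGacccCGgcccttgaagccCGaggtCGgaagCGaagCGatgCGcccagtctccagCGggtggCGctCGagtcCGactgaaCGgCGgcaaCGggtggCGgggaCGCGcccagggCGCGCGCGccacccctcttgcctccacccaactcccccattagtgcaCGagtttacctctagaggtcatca
Hoxa7: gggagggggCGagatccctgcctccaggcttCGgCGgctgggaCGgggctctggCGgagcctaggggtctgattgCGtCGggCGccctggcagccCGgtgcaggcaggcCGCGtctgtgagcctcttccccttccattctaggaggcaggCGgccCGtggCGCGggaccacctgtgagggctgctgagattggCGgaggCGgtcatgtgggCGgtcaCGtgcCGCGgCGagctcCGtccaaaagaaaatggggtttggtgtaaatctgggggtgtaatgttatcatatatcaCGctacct
Hoxa9: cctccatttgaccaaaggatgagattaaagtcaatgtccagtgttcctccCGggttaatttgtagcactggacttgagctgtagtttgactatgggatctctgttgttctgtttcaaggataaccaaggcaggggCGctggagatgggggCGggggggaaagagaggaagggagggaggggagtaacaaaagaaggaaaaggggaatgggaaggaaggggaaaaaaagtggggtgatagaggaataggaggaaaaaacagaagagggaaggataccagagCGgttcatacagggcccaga
Hoxb4: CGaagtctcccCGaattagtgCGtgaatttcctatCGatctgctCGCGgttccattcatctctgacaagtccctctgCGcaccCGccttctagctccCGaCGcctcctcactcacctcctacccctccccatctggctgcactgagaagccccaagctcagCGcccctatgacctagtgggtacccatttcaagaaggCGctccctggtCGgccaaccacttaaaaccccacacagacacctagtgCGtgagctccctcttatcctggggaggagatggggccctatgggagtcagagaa

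The Hoxa5 window held 29 CpG, that of Hoxa7 24 and that of Hoxb4 14, whereas that of Hoxa9 held 4. Over all 39 HOX windows the median was 14 CpG, beside a median of 11 (quartiles 4 and 21) over 21770 protein-coding genes. By cluster the medians were 24 in HOXA, 13.5 in HOXB, 16 in HOXC and 13 in HOXD. Motifs were searched on both strands and independently, so matches to different motifs may overlap. The HOX-PBX motif TGATTNAT was found in 3 HOX windows (Hoxa2, Hoxb3 and Hoxb9; 2.74% of all windows), the MEIS motif TGACAG in 5 (17.5% of all) and the PU.1 motif GAGGAAG in 7, Hoxa9 among them (13.2% of all). The RUNX motif TGTGGT was found in 5 (15.3% of all) and CCAAT in 27 (39.9% of all). These matches describe letters in a window, and no binding was measured.

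Expression lay almost wholly in parts of HOXA and HOXB. Of the 39 members, 12 had a mean of at least 0.1 FPKM over the 10 libraries, among them Hoxa2, Hoxa3, Hoxa4, Hoxa5, Hoxa6, Hoxa7, Hoxa9, Hoxa10, Hoxb2, Hoxb3 and Hoxb4. Thus 9 of 11 HOXA genes, 3 of 10 HOXB genes, 0 of 9 HOXC genes and 0 of 9 HOXD genes reached that level. A further 13 members were above 0 in some library, and 14 were listed at 0 in all 10. In HOXA, Hoxa11 was at 0 throughout and Hoxa13 was at 0.03 FPKM in a single library. In HOXB the members at that level were those of groups 2 to 4.

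**Figure D1:**
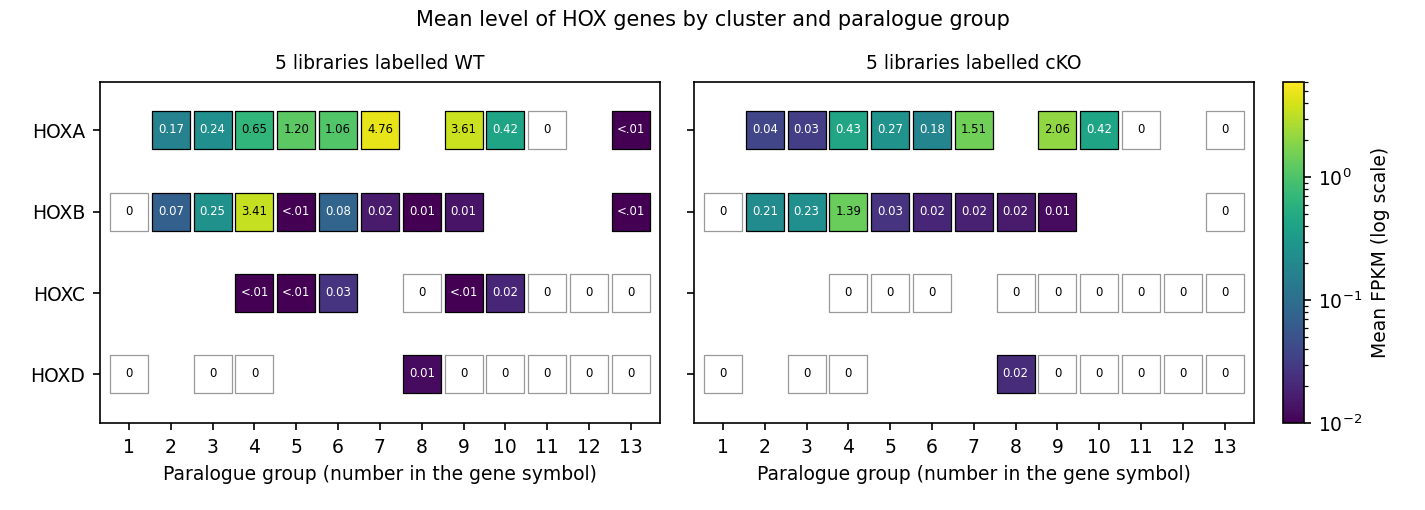
Mean level (FPKM, colour on a log scale, number in each box) of HOX genes, with clusters as rows and paralogue groups as columns, for the 5 libraries labelled WT (left) and the 5 labelled cKO (right). White boxes are genes at 0 in that group and gaps are genes absent from a cluster or not shown; in WT the highest boxes are Hoxa7 (4.76), Hoxa9 (3.61) and Hoxb4 (3.41), and HOXC and HOXD stay at or near 0.

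The remaining HOXB members were scarcely detected. Hoxb6 came closest to the limit, with a mean of 0.049 FPKM, and reached 0.3 in WT library 5 but at most 0.06 elsewhere. Hoxb5, Hoxb7 and Hoxb8 were highest in the library labelled cKO 1, at 0.13, 0.09 and 0.08 FPKM. Hoxb9 was at 0.07 in WT library 2 and 0.06 in cKO library 1, Hoxb13 was at 0.02 in WT library 4 only, and Hoxb1 was at 0 in all libraries. Just inside the limit were Hoxa2 (mean 0.105 FPKM), Hoxa3 (0.134) and Hoxb2 (0.141).

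The 2 other clusters were almost silent. In HOXC, Hoxc4, Hoxc5, Hoxc6, Hoxc9 and Hoxc10 had values above 0 in WT libraries, none above 0.08 FPKM, and all 9 HOXC genes were listed at 0 in all 5 libraries labelled cKO. In HOXD, Hoxd8 alone was above 0, at 0.06 FPKM in WT library 4 and at 0.04, 0.05 and 0.02 in cKO libraries 2, 3 and 5. These values lie at or under the level of 3 fragments, so no difference between labels could be seen at this depth.

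HOX transcripts were on average less abundant in the libraries labelled cKO. The FPKM of all 39 members summed to 19.53, 16.03, 12.91, 16.83 and 15.41 in WT libraries 1 to 5 and to 14.18, 4.79, 5.17, 4.11 and 6.95 in cKO libraries 1 to 5. The library labelled cKO 1 lay within the WT range and the other 4 lay below all WT libraries. The means were 16.1 ± 2.40 and 7.04 ± 4.13 (SD, n = 5 each), and without cKO 1 the remaining libraries averaged 32.6% of WT. HOXA supplied 75.8% of the sum in WT and 74.7% in cKO, and HOXB 23.8% and 24.9%. HOXA went from 12.2 ± 1.67 to 5.09 ± 2.62 FPKM and HOXB went from 3.86 ± 0.876 to 1.93 ± 1.56 FPKM (SD, n = 5 each). Without cKO 1, the libraries labelled cKO stood at 32.2% of WT for HOXA and 33.5% for HOXB. In a bulk sample, fewer expressing cells and less RNA per cell cannot be told apart.

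Levels of cell type markers also differed between the labels. Only marker RNA was read, and proportions of cells were not measured in these libraries. For these and the following marker lists, the shares over all genes tested were 16.8% called lower and 4.60% called higher. Of 9 stem and progenitor markers, 6 were called lower. Their summed level was 148.9 to 202.4 FPKM in WT and 69.42 to 138.7 in cKO, with Cd48 the highest. Without Cd48 the ranges were 87.81 to 119.6 in WT and 22.26 to 45.34 in cKO. Kit, the receptor that marks progenitors, was at 36.56 to 54.36 FPKM in WT and 18.73 to 31.11 in cKO. Of 8 erythroid markers, led by Hbb-bs, 5 were called higher, and their sum was 425.5 to 1301 in WT and 1783 to 2808 in cKO. All 7 monocyte and dendritic cell markers, led by Lyz2, were lower (638.8 to 1172 against 3.33 to 173.5 FPKM). All 5 megakaryocyte markers, led by Pf4, were lower (166.9 to 562 against 41.14 to 113.8), as were all 5 mast, basophil and eosinophil markers, led by Prg2 (506.9 to 1173 against 95.68 to 452.9).

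For neutrophils, led by Mpo, 2 of 7 markers, Mpo and Elane, were lower, and they made up most of the sum in WT (1811 to 2469 against 85.71 to 1302 FPKM). The others were not called, and the means of Ltf (1.75 and 9.20 FPKM), Camp (3.84 and 16.6), Ngp (10.3 and 82.3) and S100a8 (75.4 and 113) were higher under the cKO label. Ltf, Camp and S100a8 were highest in cKO library 1, at 29.05, 51.19 and 442.9 FPKM. The other cKO libraries were at 0.41 to 11.81, 0.8 to 21.04 and 2.51 to 79.19. For S100a8 the median was lower in cKO (67.62 and 34.21), and the fitted log2 fold change was -1.24 (adjusted p = 0.404, limma). For T and NK cells, led by Nkg7, 3 of 6 were lower (76.08 to 99.15 against 6.65 to 26.84). For stromal and endothelial cells, led by Col1a2, 6 of 8 tested were lower and 1 was higher (6.5 to 15.21 against 3.23 to 10.22). For B cells, led by Cd79a, 0 of 3 tested were called, with 1 lower at an unadjusted p under 0.05 (1.45 to 4.13 against 0.4 to 3). Cd3e, a defining marker of mature T cells, was at most 0.6 FPKM in any library. No marker of any list was at 0 in all libraries. The part of these shifts in the HOX values was not tested.

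Sums of HOXA members were also taken by position along the cluster. For paralogue groups 5 to 7, the sum was 5.6 to 8.54 FPKM in WT and 1.4 to 3.45 in cKO, without overlap, and the cKO mean was 27.9% of WT. For groups 1 to 4 the sum was 0.96 to 1.55 in WT and 0.44 to 0.92 in cKO, also without overlap, at 56.7% of WT. For groups 9 to 13 the sum was 3.35 to 4.8 in WT, 5.81 in cKO library 1 and 1.36 to 1.98 in the other cKO libraries. The latter 4 stood at 40.7% of WT for groups 9 to 13, at 22.6% for groups 5 to 7 and at 61.3% for groups 1 to 4. Over all clusters, groups 5 to 8 made up 43.9% to 45.9% of each WT library's HOX sum and 26.7% to 35.8% of that of each library labelled cKO, and the ranges did not overlap. Sums weigh abundant members most, Hoxa4 in groups 1 to 4 and Hoxa7 in groups 5 to 7. By single gene, the cKO mean was 22.1% of WT for Hoxa2, 13.6% for Hoxa3 and 66.4% for Hoxa4. It was 22.1% for Hoxa5, 17.2% for Hoxa6 and 31.8% for Hoxa7. Hoxa2 and Hoxa3, both near the level limit, thus did not follow the sum of their groups. The difference between positions was not put to a test of its own.

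These 12 members were compared with limma on log2(FPKM + 0.1) together with all 18742 genes at that level. This scale makes the changes of low genes look smaller than they are. A gene was called where the adjusted p was under 0.05 and the change at least 2-fold. By this rule 5 of the 12 were lower under the cKO label, as were 16.8% of all genes tested, and on adjusted p alone 7 were, as were 28.3% of all genes. They were Hoxa3, Hoxa5, Hoxa6, Hoxa7 and Hoxb4, that is 4 of 9 tested in HOXA and 1 of 3 in HOXB. Hoxa3, and Hoxa2 among those not called, reached the level limit through the WT libraries alone, so their direction was tied to passing it. By position the called genes were 2 of 7 tested in groups 1 to 4, 3 of 3 in groups 5 to 8 and 0 of 2 in groups 9 to 13. All of them are on the study's heatmap of genes picked from these libraries, so the count is not independent evidence of direction. Limma called 0 of the 12 higher, and 0 were higher at an unadjusted p under 0.05, where 4.60% of all genes were called higher. Log2 fold changes were below 0 for 10 of the 12, with a median of -0.93, beside 56.3% and -0.11 for all genes tested. In 6 of the 12, all libraries labelled cKO lay below all labelled WT, as in 21.6% of all genes. The count of genes called lower was 7 without cKO library 1, 1 with a pseudocount of 1 FPKM and 2 when a mean of at least 1 FPKM was required, which left 3 members in the test.

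**Figure D2:**
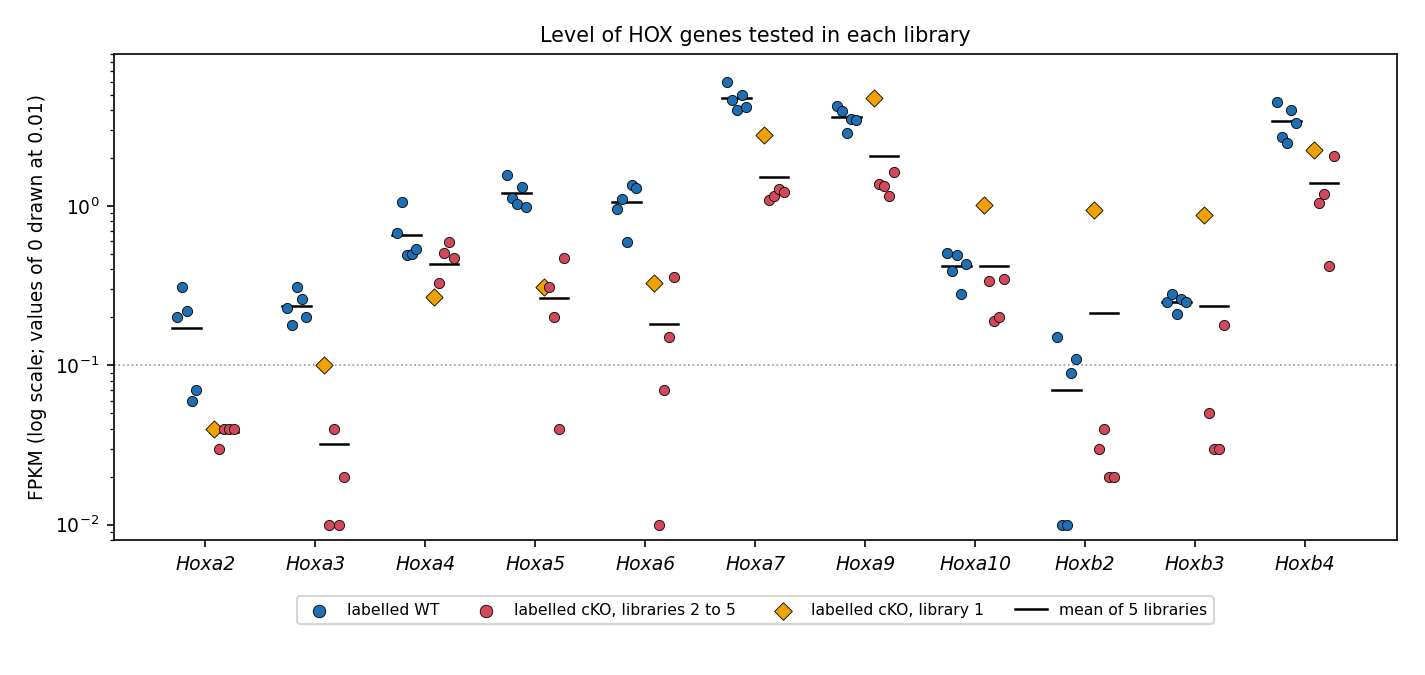
FPKM (log scale, 0 drawn at 0.01) of HOX genes tested in every library, with WT in blue, cKO library 1 as an orange diamond, cKO libraries 2 to 5 in red and the mean of each label as a bar; the dotted line is 0.1 FPKM. Hoxa5, Hoxa6 and Hoxa7 separate fully by label, whereas in Hoxa9, Hoxa10, Hoxb2 and Hoxb3 the orange diamond is above every WT point.

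Hoxa7, a gene activated together with Hoxa9 in MLL leukaemia, had the highest mean FPKM of the members in WT. It measured 6.01, 4.63, 3.98, 5 and 4.16 FPKM in the WT libraries, in order of number, and 2.81, 1.09, 1.15, 1.28 and 1.22 in the cKO libraries. Every library labelled cKO was below every WT library, and cKO 1 was the highest of its group. The means were 4.76 ± 0.807 and 1.51 ± 0.730 FPKM (SD, n = 5 each), which is -1.67 on the log2 scale (SE, standard error, 0.244, adjusted p = 3.63e-04, limma). Its start window held 24 CpG, and those of Hoxa5 and Hoxa6 held 29 each.

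Hoxa5, a regulator of the balance between myeloid and erythroid progenitors, was at 1.57, 1.12, 1.03, 1.31 and 0.99 FPKM in WT and at 0.31, 0.31, 0.2, 0.04 and 0.47 in cKO. The groups were well apart, with cKO at 22.1% of WT on average. The difference was -1.96 on the log2 scale (SE 0.356, adjusted p = 0.00121, limma). Hoxa6, the next gene along the cluster, was at 0.96, 1.1, 0.59, 1.35 and 1.29 FPKM in WT and at 0.33, 0, 0.07, 0.15 and 0.36 in cKO. It had the most negative fitted value of the members, -2.21 on the log2 scale (SE 0.433, adjusted p = 0.0019, limma), and no library held more than about 22 of its fragments.

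Hoxa3, known for its role in the pharyngeal arches and thymus, was at 0.23, 0.18, 0.31, 0.26 and 0.2 FPKM in WT and at 0.1, 0, 0.04, 0 and 0.02 in cKO. The groups did not overlap, and they differed by -1.39 on the log2 scale (SE 0.279, adjusted p = 0.00222, limma). Its annotated span runs over Hoxa4, Hoxa5 and Hoxa6 on the same strand and over several antisense genes. Whether the counting used strand was not given in the sources used here, so fragments of overlapping genes cannot be told apart, and the value of Hoxa3 is uncertain. The same holds for Hoxa4, Hoxa5, Hoxa6 and Hoxa7, which overlap the antisense gene Hoxaas3. It also holds for Hoxb2 and Hoxb3, which overlap the antisense gene Hoxb3os, and for Hoxb5 to Hoxb9, which overlap Hoxb5os.

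Hoxb4, the stem cell expansion factor of HOXB, was at 4.52, 2.73, 2.5, 3.98 and 3.32 FPKM in WT and at 2.25, 1.04, 1.19, 0.42 and 2.06 in cKO. All libraries labelled cKO were below all labelled WT, though cKO 1 and cKO 5 came close to the lowest WT library. The means were 3.41 ± 0.845 and 1.39 ± 0.757 (SD, n = 5 each), or -1.39 on the log2 scale (SE 0.378, adjusted p = 0.0117, limma). The call did not hold with a covariate for Xist (log2 fold change -1.46, adjusted p = 0.0583) nor with quantile normalization, under which the fold was under 2 (-0.90, adjusted p = 0.0474), nor with a pseudocount of 1 FPKM (-0.92, adjusted p = 0.00701).

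Hoxa9, the member best known for self-renewal and leukaemia, was not called. It was at 4.26, 3.93, 2.86, 3.52 and 3.48 FPKM in WT and at 4.79, 1.37, 1.33, 1.16 and 1.63 in cKO. The library labelled cKO 1 was the highest of all 10, and the other 4 were below every WT library. With all libraries the difference was -0.98 on the log2 scale (SE 0.332, adjusted p = 0.0321, limma), just short of the fold limit. It passed without cKO library 1 (-1.33, adjusted p = 1.46e-04) and without WT library 3 (-1.06, adjusted p = 0.0376). It also passed with a pseudocount of 0.01 FPKM (-1.03, adjusted p = 0.0323) and with equal sums per library (-1.02, adjusted p = 0.0286). With any other library left out, the adjusted p was 0.0573 to 0.0748. The adjusted p was 0.075 with the covariate for Xist and 0.184 with quantile normalization (-0.52).

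Hoxa10, which shares blood functions with Hoxa9, was at 0.51, 0.39, 0.49, 0.28 and 0.43 FPKM in WT and at 1.02, 0.34, 0.19, 0.2 and 0.35 in cKO. Both means were 0.420 FPKM, with cKO 1 above all WT libraries, and the log2 fold change of -0.18 had a 95% interval of -0.99 to 0.64 (adjusted p = 0.73, limma). Its sign turned under quantile normalization, which gave 0.28 (adjusted p = 0.547).

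Hoxa4 was at 0.68, 1.06, 0.49, 0.5 and 0.54 FPKM in WT and at 0.27, 0.33, 0.51, 0.59 and 0.47 in cKO. The groups overlapped, and the log2 fold change was -0.49 (95% interval -1.09 to 0.12, adjusted p = 0.176, limma). Hoxa4 thus had a fitted value closer to 0 than its neighbours Hoxa3 and Hoxa5, without a test of that difference. In its case cKO 1 was the lowest library of all 10.

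Hoxa2, a hindbrain patterning gene, was low. It was at 0.2, 0.31, 0.22, 0.06 and 0.07 FPKM in WT and at 0.04, 0.03, 0.04, 0.04 and 0.04 in cKO, without overlap. Its difference of -0.88 on the log2 scale (SE 0.315, adjusted p = 0.0403, limma) was short of the fold limit. It was called without WT library 4 (-1.05) or WT library 5 (-1.03). The same held with a pseudocount of 0.01 FPKM (-1.69) and with the covariate for Xist (-1.35). Without any other WT library, Hoxa2 fell under the level limit and was not tested. With any cKO library left out, the adjusted p was 0.054 to 0.079 (limma). The adjusted p was 0.0755 with replicate number as a block, 0.0661 with a pseudocount of 1 FPKM and 0.347 with quantile normalization (-0.40). At most about 13 fragments of Hoxa2 were counted in a library. Its span also overlaps the antisense gene Hotairm1, which had a mean of 1.01 FPKM, so the strand limit given for Hoxa3 applies to Hoxa2 as well.

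Hoxb2 and Hoxb3, neighbours at the end of HOXB that is used early in development, depended on cKO library 1. Hoxb2 was at 0.15, 0, 0, 0.09 and 0.11 FPKM in WT and at 0.95, 0.03, 0.04, 0.02 and 0.02 in cKO, and it passed the limit of 0.1 FPKM through cKO 1. Its log2 fold change was 0.29 (95% interval -1.07 to 1.65, adjusted p = 0.731, limma). Hoxb3 was at 0.25, 0.28, 0.21, 0.26 and 0.25 FPKM in WT and at 0.88, 0.05, 0.03, 0.03 and 0.18 in cKO. Of the cKO libraries, cKO 1 was above every WT library and the other 4 were below every WT library. The log2 fold change was -0.58 (95% interval -1.73 to 0.57, adjusted p = 0.398, limma) with all libraries and -1.10 (adjusted p = 0.0116), a call, without cKO 1.

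**Figure D3:**
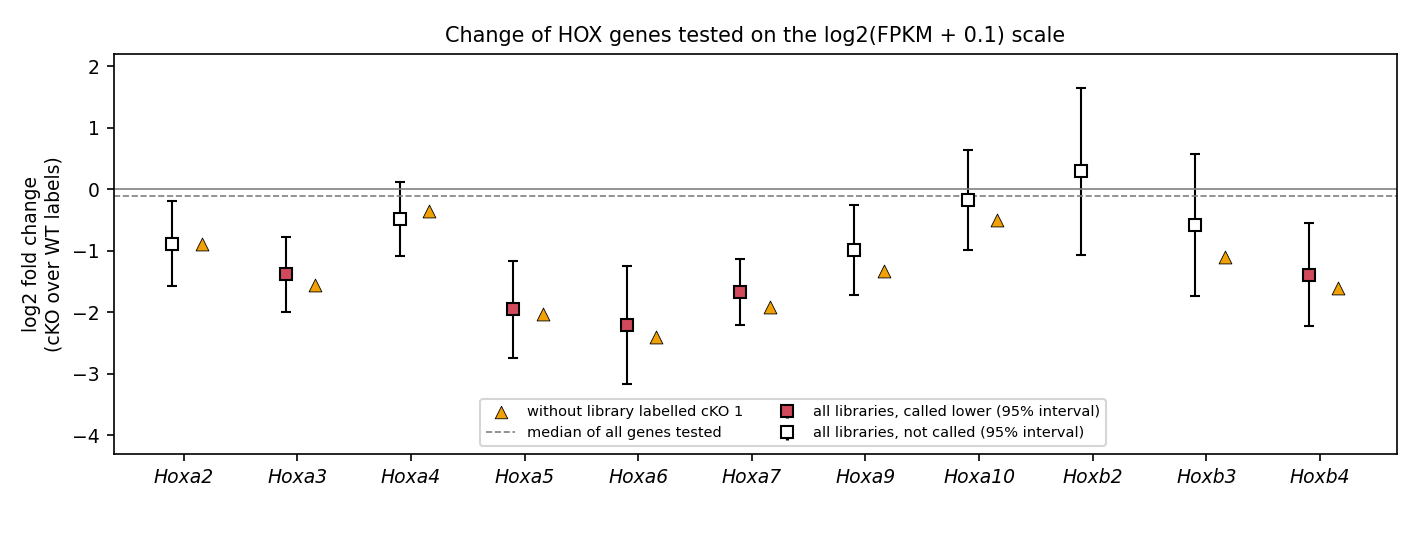
Log2 fold change (cKO over WT labels, on the log2(FPKM + 0.1) scale) of HOX genes tested, in order along HOXA and then HOXB. Squares with 95% intervals use all 10 libraries and are filled where called lower, triangles leave out cKO library 1, and the dashed line is the median of all genes tested (-0.11); the lowest squares are Hoxa6 (-2.21), Hoxa5 (-1.96) and Hoxa7 (-1.67).

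The order of the members by level also differed between the labels. In WT it ran, from high to low mean FPKM, Hoxa7, Hoxa9, Hoxb4, Hoxa5, Hoxa6, Hoxa4, Hoxa10, Hoxb3, Hoxa3, Hoxa2 and Hoxb2. Hoxb4 lay above Hoxa5 with no overlap of their ranges in WT, whereas all the other neighbours in that order overlapped. Hoxa9 exceeded Hoxb4 in 3 of 5 WT libraries and Hoxa5 exceeded Hoxa6 in 3 of 5. In cKO the order was Hoxa9, Hoxa7, Hoxb4, Hoxa4, Hoxa10, Hoxa5, Hoxb3, Hoxb2, Hoxa6, Hoxa2 and Hoxa3, and the ranges of all neighbours overlapped. FPKM divides by gene length, and the annotated exons came to 2881 bp for Hoxa7 and 5580 bp for Hoxa9. Which of these genes ranks higher therefore depends on the length used. The exchange at the top can be followed within each library, where a fixed length shifts every ratio alike. The ratio of Hoxa7 to Hoxa9 was 1.41, 1.18, 1.39, 1.42 and 1.2 in WT libraries 1 to 5 and 0.587, 0.796, 0.865, 1.1 and 0.748 in cKO libraries 1 to 5. Hoxa7 thus exceeded Hoxa9 in 5 of 5 WT libraries and in 1 of 5 labelled cKO, and the ratios did not overlap between labels, cKO 1 included. This was 1 of 6 ratios computed between members, and the other 5 overlapped between labels. The ratio of Hoxb4 to Hoxa9, for example, was at 0.695 to 1.13 in WT and 0.362 to 1.26 in cKO.

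The library labelled cKO 1 stood apart in this family. It was the highest cKO library in 7 of the 12 members tested (58.3%), as in 29.2% of all genes tested. Hoxb2, among those 7, passed the level limit through cKO 1, so its place there was tied to the filter. The library labelled cKO 1 was the highest of all 10 libraries in 7 of the 39 members, namely Hoxa9, Hoxa10, Hoxb2, Hoxb3, Hoxb5, Hoxb7 and Hoxb8. The HOXB genes named here overlap the antisense genes Hoxb3os or Hoxb5os, which were also highest in cKO 1 among the cKO libraries. Sense and antisense fragments cannot be told apart there, since strand use in counting was not given. The other 4 cKO libraries lay below every WT library in 8 of the 12 (66.7%, beside 26.1% of all genes). Hoxa2 and Hoxa3, among those 8, passed the level limit through the WT libraries alone, so their direction was tied to the filter. Members with a value above 0 numbered 17 in cKO 1, 11 to 13 in the other cKO libraries and 14 to 18 in WT. Beside this, the neutrophil markers summed to 1302 FPKM in cKO 1 and to 85.71 to 697.1 in the other cKO libraries, S100a8 was at 442.9 FPKM against 2.51 to 79.19, and the stem and progenitor marker Cd48 was at 29.41 against 72.8 to 106.63. The other 8 stem and progenitor markers summed to 40.01 FPKM in cKO 1, within the range of 22.26 to 45.34 in the other cKO libraries. The part of these differences in the HOX values was not tested.

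Among the TALE cofactors that bind DNA with HOX proteins, 6 of 9 genes were tested. Meis1, the partner of Hoxa9, was lower, at 2.78, 3.62, 2.73, 2.96 and 3.54 FPKM in WT and at 0.67, 0.52, 0.75, 0.61 and 1.32 in cKO (log2 fold change -1.94, adjusted p = 1.25e-04, limma). The gene separated fully by label, it is on the study's heatmap picked from these libraries, and cKO 1 lay below every WT library.

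Pbx3, a cofactor of the same family, went the other way. It was at 1.27, 1.36, 1.41, 1.52 and 1.74 FPKM in WT and at 3.96, 4.43, 3.34, 5.02 and 3.44 in cKO (log2 fold change 1.40, adjusted p = 9.5e-05, limma), with every library labelled cKO above every WT library. Pknox1 was at 7.23 ± 0.495 FPKM in WT and 4.95 ± 0.788 in cKO (SD, n = 5 each) without overlap, but the log2 fold change of -0.55 was short of the limit (adjusted p = 0.00302, limma). Pbx2 (17.4 and 16.4 FPKM) and Pbx4 (5.49 and 6.05) were the most abundant PBX genes in both groups, and their groups overlapped. The summed level of the 9 genes was 37 to 40.32 FPKM in WT and 31.21 to 35.72 in cKO.

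**Figure D4:**
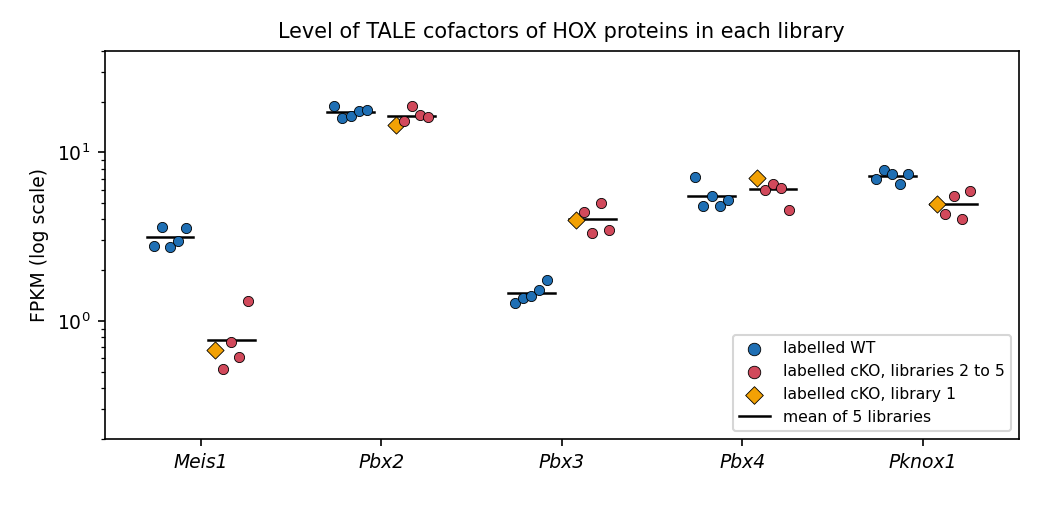
FPKM (log scale) of TALE cofactor genes in every library, with WT in blue, cKO library 1 as an orange diamond, cKO libraries 2 to 5 in red and the mean of each label as a bar. Meis1 is lower in all libraries labelled cKO, Pbx3 is higher in all of them (1.46 against 4.04 FPKM on average), and Pbx2 and Pbx4 overlap.

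Regulators of the clusters were read from a list of activators and a list of Polycomb genes. Of 21 activator genes tested, limma called 2 lower and 0 higher beside 16.8% and 4.60% of all genes, for a median log2 fold change of -0.14. At an unadjusted p under 0.05, 9 were lower, the 2 calls included, and 3 were higher. Each of the 3 higher genes also had an adjusted p under 0.05 with a change short of the fold limit. They were Mllt3 (5.78 ± 0.828 to 10.6 ± 0.594 FPKM, 0.88 on the log2 scale, adjusted p = 1.15e-04, all libraries labelled cKO above all WT), Ash2l (0.34, adjusted p = 0.00341) and Psip1 (0.18, adjusted p = 0.0324). The calls were the retinoic acid receptors Rara (4.40 ± 0.922 to 1.37 ± 0.416 FPKM, log2 fold change -1.65, adjusted p = 3.45e-04) and Rarg (5.05 ± 0.943 to 0.776 ± 0.495, -2.71, adjusted p = 1.69e-04). Kmt2a, which encodes MLL, was at 12.2 ± 2.38 and 7.88 ± 0.932 FPKM (SD, n = 5 each), and its difference of -0.61 on the log2 scale was short of the limit (adjusted p = 0.00464). Cdx1, Cdx2 and Cdx4, activators of HOX genes in the embryo, were listed at 0 in all 10 libraries.

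Of 19 Polycomb genes tested, limma called 3 lower and 0 higher, for a median log2 fold change of -0.36. At an unadjusted p under 0.05, 11 were lower and 1, Bmi1, was higher. The 3 called are a share near the 16.8% of all genes called lower. All 3 encode subunits of Polycomb repressive complex 1. Cbx8 went from 3.04 ± 0.481 to 0.556 ± 0.292 FPKM (log2 fold change -2.37, adjusted p = 2.08e-04), Pcgf2 from 1.32 ± 0.336 to 0.294 ± 0.176 (-1.96, adjusted p = 0.00106) and Cbx2 from 2.86 ± 0.455 to 0.696 ± 0.203 (-1.92, adjusted p = 1.09e-04). Ezh2, the methyltransferase of the second complex, was at 38.4 ± 2.44 and 39.8 ± 5.05 FPKM (SD, n = 5 each), with overlapping groups.

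A list of genes known to act downstream of HOXA9 and MEIS1 in blood progenitors had 13 of 14 members tested, with 7 called lower, 1 called higher (16.8% and 4.60% over all genes) and a median of -1.22 on the log2 scale. Lower were the cytokine receptor Flt3 (20.8 to 1.96 FPKM), the transcription factors Sox4 (19.2 to 2.13), Erg (12.4 to 2.10) and Mef2c (7.70 to 1.51), the progenitor surface protein Cd34 (25.7 to 3.10), the growth factor receptor Igf1r (9.92 to 3.91) and the survival gene Bcl2 (8.51 to 4.33). Flt3 and Cd34 are also on the stem and progenitor marker list. The kinase gene Pim1 was higher (20.5 to 64.9 FPKM, log2 fold change 1.63, adjusted p = 6.9e-05, limma), in all libraries labelled cKO. Lmo2 was at 138 and 140 FPKM with overlapping groups, and Myb went from 70.6 to 38.7 FPKM, a log2 fold change of -0.88 short of the limit.

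Genes between the HOX genes were examined next. Inside the 4 clusters lie 45 genes other than HOX genes, of which 11 were tested, 6 in HOXA and 5 in HOXB. Limma called 3 lower and 0 higher, where 16.8% and 4.60% of all genes were called. At an unadjusted p under 0.05, 4 were lower and 0 higher. In HOXA, 5730596B20Rik (chromosome 6, 52154135 to 52157831, plus strand), which overlaps Hoxa3 on the opposite strand, was at 0.14 to 0.45 FPKM in WT and at most 0.04 in cKO (log2 fold change -1.57, adjusted p = 0.00206, limma). Like Hoxa3, 5730596B20Rik reached the level limit through the WT libraries alone, so its direction was tied to passing it. The antisense gene Gm15050, also inside the Hoxa3 span, had means of 0.568 and 0.110 FPKM with overlapping groups (log2 fold change -1.64, adjusted p = 0.0246). Hotairm1, an antisense RNA known from myeloid differentiation, was at 1.01 ± 0.365 and 1.01 ± 0.216 FPKM (SD, n = 5 each; log2 fold change 0.06, adjusted p = 0.881).

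Hoxaas3, antisense to Hoxa4 through Hoxa7, was at 0.2 to 0.53 FPKM in WT and 0.11 to 0.53 in cKO (log2 fold change -0.31, adjusted p = 0.499, limma), so it overlapped where those sense genes other than Hoxa4 did not. In HOXB, the antisense gene Hoxb3os was at 1.31 FPKM in cKO library 1 and at most 0.14 in any other library, the same library in which Hoxb2 and Hoxb3, which it overlaps, were highest. Hoxb5os was at 0.31 FPKM in cKO 1, at 0 in the other cKO libraries and at 0 to 0.38 in WT. The non-coding genes Gm56051 and Gm56053 in HOXA and Gm11536 in HOXB, and the transcribed pseudogene Gm11539 in HOXB, also passed the level limit without a call.

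The microRNA gene Mir10a lies upstream of Hoxb4 (chromosome 11, 96207991 to 96208100, plus strand) and no HOX gene of the annotation overlaps it. It was at 2.73, 3.29, 1.76, 3.89 and 5.44 FPKM in WT, at 3.28 in cKO library 1 and at 0 in cKO libraries 2 to 5. The difference was called (log2 fold change -4.03, adjusted p = 0.00445, limma) and rests on at most about 9 fragments per library. This value counts fragments over the precursor gene, and mature microRNA was not measured. The mature 5p product is shown with its seed (bases 2 to 8, RefSeq sequence) in capitals, beside that of Mir10b from HOXD, which shares the seed and was listed at 0 in all 10 libraries.
mmu-miR-10a-5p: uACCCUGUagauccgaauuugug
mmu-miR-10b-5p: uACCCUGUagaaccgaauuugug

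Within 200 kb outside the clusters lie 52 genes, of which 16 were tested. Limma called 2 lower and 0 higher, which is no more than the shares over all genes, 16.8% and 4.60%. At an unadjusted p under 0.05, 4 were lower and 5 higher. Skap2, an adaptor gene next to HOXA, was at 7.52 to 10.58 FPKM in WT and 2.08 to 3.76 in cKO (log2 fold change -1.72, adjusted p = 5.9e-05, limma). Skap1, its relative next to HOXB, was at 0.29 to 0.61 and 0.09 to 0.29 FPKM (log2 fold change -1.19, adjusted p = 0.00611, limma). Beside the silent HOXD cluster, Mtx2 was at 11.3 to 15.51 FPKM in WT and 16.71 to 20.58 in cKO (log2 fold change 0.57, adjusted p = 7.16e-04) and Lnpk at 4.12 to 5.54 and 5.98 to 9.01 (0.40, adjusted p = 0.033). Beside HOXC, Cbx5 was at 64.48 to 71.67 and 74.06 to 82.35 FPKM (0.19, adjusted p = 0.0133). All 3 were higher in every library labelled cKO than in any labelled WT, with changes short of the fold limit. So was Snf8 beside HOXB, at 16.76 to 21.5 and 22 to 23.73 FPKM (0.33, adjusted p = 0.00379, limma). Calcoco1 (-0.70, adjusted p = 0.0283) and Smug1 (-0.30, adjusted p = 0.0642), both beside HOXC, were lower. Hibadh beside HOXA was higher (0.26, adjusted p = 0.0849). Neighbours of HOXA, HOXB and HOXC thus went both ways.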

How the data were processed

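Total RNA of 10 Lin- samples was sequenced as paired ends, and whether poly(A) RNA was selected was not given in the sources used here. The authors aligned the reads with HISAT2 to GRCm39 and deposited FPKM values with 2 decimals for each gene in each library. The submitters' processing notes also name cutadapt 1.9.1 and HTSeq 0.6.1. The counts that the authors tested with DESeq2 were not used here. All 10 columns were matched to labels by name, 5 per label, and 0 columns of other samples were left out. Fragment depth was recovered from low values of genes of up to 600 bp with 1 transcript, of which 97% to 97.7% were whole within 0.2. The 3-fragment level covers counting error only, whereas the 95% intervals of fold changes come from limma and reflect the spread between libraries.

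Replicates within a label were compared and none agreed within sampling noise (the lowest chi-square was 3.81 per degree of freedom). The labels number the samples without naming the mouse, so p-values measure the spread between these samples.

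The 18742 genes whose mean reached 0.1 FPKM entered a limma 3.58.1 fit (lmFit, then eBayes with trend, R 4.3.3) of log2(FPKM + 0.1). Two-sided p-values were adjusted over these genes by Benjamini-Hochberg, and a call required an adjusted p below 0.05 and at least a 2-fold change. Members and companion lists were drawn up with earlier results of these data known. Some genes are not reported here. Otherwise named were Dhx9, every HOX gene, every TALE cofactor tested, called genes of each list (up to 8), tested non-coding genes inside the clusters and, of each marker list, its sum and highest gene. The other genes named (Xist, Kit, Cd3e, S100a8, Elane, Ltf, Camp, Ngp, Kmt2a, Mllt3, Ash2l, Psip1, the CDX genes, Bmi1, Ezh2, Lmo2, Myb, Mir10b and the protein-coding neighbours) were chosen after their values were seen. Coordinates and promoter windows came from GENCODE vM39, microRNAs from RefSeq. Alternatives were other pseudocounts, filters and scalings, a fit without trend, replicate number as a blocking factor, a covariate for Xist, adjusted p alone and each library left out. The steps were tested on simulated data.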

Additional observations from a re-analysis of the deposited data

Results flagged for a closer look

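In 6 of 24 sets of 5 libraries (12 HOX genes by 2 labels), a single library lay far from the other 4 of its label by Dixon's test. At 1 in 20 per set, about 1.2 would be expected of independent sets. These sets come from the same libraries and are not independent, so the 6 cannot be weighed against that number. In 5 of the 6 it was the library labelled cKO 1, always on the high side. Hoxb2, among those 5, passed the level limit through that library, so its place there was tied to the filter. Hoxa7 was at 2.81 FPKM there and at 1.09 to 1.28 in the other cKO libraries, Hoxa9 at 4.79 against 1.16 to 1.63, Hoxa10 at 1.02 against 0.19 to 0.35, Hoxb2 at 0.95 against 0.02 to 0.04 and Hoxb3 at 0.88 against 0.03 to 0.18. The remaining value is Hoxa2 in cKO library 2, at 0.03 FPKM where the other 4 were each at 0.04, which is a single step of the rounding.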

How the results depend on the processing

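Of the 12 members, 5 were called lower with all libraries and the settings above. The count was 1 (Hoxa7) with a pseudocount of 1 FPKM, which draws low values together, and 2 (Hoxa7 and Hoxb4) where the mean had to reach 1 FPKM, which left 3 members. It was 4 to 7 under the other settings, 5 to 7 when each library was left out in turn, and no setting called a member higher. The median log2 fold change of the members was -0.93, and -1.33 to -0.87 when each library was left out. It was -0.46 with quantile normalization, -0.23 with a pseudocount of 1 FPKM, -1.35 with a pseudocount of 0.01, -1.39 over the 3 members with a mean of 1 FPKM or more and -0.18 with no filter (25 members). Quantile normalization reversed Hoxa10 to 0.28, moved the median of all genes from -0.11 to 0.10 and called 1581 genes higher and 2245 lower, against 862 and 3153; the cause was not tested. Over all genes, 1486 were lower and 356 higher with a pseudocount of 1 FPKM, 1827 and 462 where the mean had to reach 1 FPKM, and 5300 and 3138 on adjusted p alone. Among 238 values of single members under 21 settings, 220 kept their direction and their side of the threshold, 6 lost the call, 11 gained it and 1 reversed.

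Whether the replicate numbers pair the samples could not be settled from the values. Correlations of the deviations of same-numbered libraries were 0.117, 0.0258, -0.0103, -0.00304 and 0.0929, and in 3 of 5 the closest library of the other label bore the same number. With the replicate number as a block, 5 members were called lower, and 3107 genes were lower and 857 higher.

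Most members lie near the depth limit, so small differences in HOXC, HOXD and the later HOXB genes could not be seen.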
